A study of Homo sapiens with 6 samples.

Results

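BMP ligands, the ID genes that their signal induces and the pathway's feedback inhibitors were followed in H9, a line of human embryonic stem cells. The 10 genes BMP2, BMP4, BMP7, ID1, ID2, ID3, ID4, BAMBI, SMAD6 and NOG were taken by name from the counts of 53712 gene names. The cells of all 6 libraries were kept in RSeT medium, which is sold for the naive-like state. Both groups, the controls included, were given 10 nM DZNep (an S-adenosylhomocysteine hydrolase inhibitor) together with 5 nM TSA (trichostatin A, which inhibits histone deacetylases) from 24 h after passage. One group had 2.5 µM UNC1999 for 48 h, which blocks EZH2 and EZH1, the H3K27 methyltransferases of Polycomb repressive complex 2. The other had 2.5 µM UNC2400, an N-methylated analog of low activity, for the same time. Each group had 3 libraries, and no group lacked DZNep and TSA or both UNC compounds. Whether replicates were separate cultures is not in the labels, so every p-value is set against a spread between libraries that could be technical.

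BMPs are secreted dimers that bring together type I and type II receptor kinases. The receptors phosphorylate SMAD1, SMAD5 and SMAD9, which enter the nucleus with SMAD4 and activate targets, the ID genes foremost among them. ID proteins are helix-loop-helix proteins without a DNA-binding region that hold E proteins and other basic helix-loop-helix factors away from DNA. NOG binds the ligand outside the cell, BAMBI is a receptor-like membrane protein without a kinase, and SMAD6 blocks the receptor-activated SMADs; such inhibitors are often induced by the signal that they limit. In human pluripotent cells BMP4 is used to drive amnion, trophoblast and mesoderm fates.

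Total counts were 29699441 to 42345448 per library, so a count of 0 allows up to 0.0708 to 0.101 CPM (counts scaled to a common library size). All 7 pluripotency markers examined (POU5F1, NANOG, SOX2, LIN28A, DPPA4, TDGF1 and L1TD1) were above 1 CPM in both groups, at summed levels of 7430 to 7537 CPM in UNC2400 and 6189 to 6905 in UNC1999, which matches the labelled cell type. Of these 7, 4 were lower and none higher (edgeR). Over all tested genes 52.7% passed in either direction, 25.9% as lower. Of 8 amnion or trophoblast markers, GABRP and KRT7 reached 1 CPM, and the list summed to 6.35 to 7.82 CPM in UNC2400 and 5.86 to 6.79 in UNC1999. No marker on that list was at 0 in all 6 libraries, and GATA3, TFAP2A, CDX2 and HAND1 were at or below 0.284 CPM in each. Of 5 mesoderm or primitive streak markers MIXL1 and TBX6 reached 1 CPM, at sums of 7.53 to 10.2 CPM in UNC2400 and 8.88 to 11.3 in UNC1999. Sums were 1.72 to 2.16 and 2.52 to 3.38 CPM for 4 neuroectoderm markers, and 0.63 to 0.886 and 1.25 to 1.76 CPM for 4 endoderm markers. Higher in UNC1999 were MIXL1 (1.24-fold, groups overlapping, edgeR adjusted p = 0.0477), POU3F2 (4.9-fold, 2.26e-05) and GATA4 (2.59-fold, 0.004). No mesoderm, neuroectoderm or endoderm marker was called lower. TBX6 lay lower without overlap (log2 fold change -0.48) but narrowly missed the threshold (edgeR adjusted p = 0.0525). POU3F2 and GATA4 were at 0.215 and 0.291 CPM in UNC2400, and were tested because of their levels in UNC1999. Of 6 fibroblast or feeder markers COL1A2 and THY1 reached 1 CPM. DCN and LUM were at or below 0.0853 CPM in each library and COL3A1 at or below 0.265. That list's sum was 213 to 235 CPM in UNC2400 and 146 to 160 in UNC1999, nearly all of it COL1A2 and THY1. COL1A2 and THY1 were lower, while PDGFRB, at 0.189 ± 0.166 and 0.508 ± 0.328 CPM (SD, n = 3 each) with overlapping groups, was higher (edgeR adjusted p = 0.044). Whether such cells were present, and what part they had in the results below, was not tested.

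BMP4 and ID4 rose and ID1 fell in UNC1999, while BMP2, BMP7, ID3 and SMAD6 did not pass the test. ID2, BAMBI and NOG passed as higher, each with a call that some settings ended. Of all gene names, 17596 passed the low-count filter and were tested with edgeR's quasi-likelihood test, and 52.7% of them passed at a Benjamini-Hochberg adjusted p of 0.05, 26.8% as higher and 25.9% as lower. Of the 10 genes, 6 passed in either direction (60%), which is near that background share and so is no result about these genes. By direction, 5 of the 10 were higher and 1 lower, a split that was not tested. Their median log2 fold change was 0.16 against 0.02 for all tested genes. NOG is in these counts only because its UNC1999 libraries lay above the low-count filter. In bulk RNA, fewer cells that express a gene and less of its RNA per cell cannot be told apart.

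The promoter sequences of ID1, ID4 and BAMBI are shown because ID1 was the gene that fell, ID4 rose most among the well-counted genes, and BAMBI held the most matches to SMAD motifs. Each is the 250 bases before the start site in RefSeq, build GRCh38.p14, 5′ to 3′ on the gene's plus strand. Capitals mark matches to 4 motifs, searched on both strands. GGCGCC, a GC-rich motif of SMAD1 and SMAD5, is its own reverse complement. Its variant GGAGCC reads as GGCTCC on the other strand. The SMAD binding element CAGAC reads as GTCTG there. The TATA box was searched as TATAAA and its reverse complement TTTATA, and in ID1 these overlap. ID1 lies at chr20:31605039-31605288, ID4 at chr6:19837120-19837369 and BAMBI at chr10:28677271-28677520.
ID1: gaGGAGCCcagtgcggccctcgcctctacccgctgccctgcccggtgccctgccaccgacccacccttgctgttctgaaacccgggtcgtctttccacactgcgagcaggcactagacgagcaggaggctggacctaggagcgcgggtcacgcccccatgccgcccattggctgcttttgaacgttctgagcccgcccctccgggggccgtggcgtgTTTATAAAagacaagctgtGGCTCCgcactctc
ID4: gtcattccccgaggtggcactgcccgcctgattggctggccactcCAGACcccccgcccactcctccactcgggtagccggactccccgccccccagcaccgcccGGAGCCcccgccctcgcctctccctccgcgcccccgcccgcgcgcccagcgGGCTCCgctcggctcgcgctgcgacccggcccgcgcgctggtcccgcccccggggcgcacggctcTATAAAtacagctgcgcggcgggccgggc
BAMBI: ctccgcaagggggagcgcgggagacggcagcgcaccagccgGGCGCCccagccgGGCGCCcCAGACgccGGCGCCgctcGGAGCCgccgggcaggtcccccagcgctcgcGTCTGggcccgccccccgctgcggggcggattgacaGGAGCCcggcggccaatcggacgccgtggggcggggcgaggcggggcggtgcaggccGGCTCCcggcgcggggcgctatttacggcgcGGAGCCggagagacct

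A TATAAA stood 31 bases before the start in ID1, overlapping a TTTATA that begins 33 bases before it, and 29 bases before the start in ID4. BAMBI had no TATAAA, and 10.7% of the 35116 windows of this length in the table held a match. GGCGCC occurred 3 times in BAMBI, 209, 196 and 181 bases before the start, and not in the window of ID1, ID2, ID3, ID4 or SMAD6. It was found in 16.4% of all windows. Sequence further upstream was not searched, so a motif missing here may still occur there. GGAGCC matched 4 times in BAMBI, 2 times each in ID1 and ID4, 3 times in SMAD6 and once in ID3, against 30.6% of windows with any match. CAGAC matched 2 times in BAMBI and once each in ID3 and ID4, against 38% of windows. Of 3 BMP4 windows, for alternative start sites, 1 held GGCGCC and CAGAC, 1 held GGAGCC and CAGAC and 1 held no match. The number of matches per window was not compared with other windows. The window of ID1 held 19 CG dinucleotides, those of ID3, ID2, ID4 and BAMBI 24, 29, 34 and 41, with a median of 11 over all windows. SMAD6 held 25, and the 3 BMP4 windows held 25, 17 and 27. GC content was 66% in ID1, 78.8% in ID4 and 81.2% in BAMBI, against a median of 58% over all windows. The shares of windows with a match were not adjusted for GC content, so they set no expected number for such GC-rich windows. RefSeq windows were matched for 7 of the 10 genes. A match is a description of letters, and the data do not say which factor was bound.

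Among the 3 ligands, only BMP4 passed the test. BMP4 stood at 10.2, 10.6 and 9.44 CPM in UNC2400 replicates 1 to 3 and at 17.1, 16.9 and 19.4 CPM in UNC1999 replicates 1 to 3, so the lowest UNC1999 library lay well above the highest UNC2400 library. Groups did not overlap for 60.6% of tested genes, 30.9% with UNC1999 higher and 29.7% with UNC1999 lower. The means were 10.1 ± 0.567 and 17.8 ± 1.38 CPM (SD, n = 3 each), a 1.77-fold difference with a log2 fold change of 0.82 and a 95% interval of 0.64 to 1.0 (edgeR adjusted p = 7.61e-07). The call was made in all 14 alternatives tried, with log2 fold changes from 0.6 to 0.86 and adjusted p-values from 3.89e-17 to 1.60e-05.

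BMP2, which can pair with BMP7 or act alone, had 13.5, 12.9 and 13.1 CPM in the UNC2400 libraries and 15.5, 10.7 and 12.7 CPM in the UNC1999 libraries. The UNC2400 values sat inside the wider UNC1999 range, where replicate 1 was highest and replicate 2 lowest. Its log2 fold change was -0.02 with a 95% interval of -0.25 to 0.21 (edgeR adjusted p = 0.899). BMP7, the most abundant ligand of the 3 both in CPM and per kb of exon, had 31.2, 31.0 and 31.2 CPM in UNC2400 and 37.3, 30.4 and 31.0 CPM in UNC1999. UNC1999 replicate 1 alone stood above the rest. The log2 fold change of BMP7 was 0.08, with an interval of -0.07 to 0.23 (edgeR adjusted p = 0.373). Without UNC1999 replicate 1 it was -0.04, and with offsets for genomic span, exon length and GC content it was 0.31 and passed (edgeR adjusted p = 3.88e-04).

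Per kb of exon, the ligands in UNC2400 ordered as BMP7 at 5.74 ± 0.0251 CPM per kb, BMP2 at 3.65 ± 0.0811 and BMP4 at 3.26 ± 0.184 (SD, n = 3 each). In UNC1999 BMP7 was at 6.07 ± 0.7, BMP4 at 5.79 ± 0.447 and BMP2 at 3.6 ± 0.671. BMP4 thus moved from the lowest level per kb to one that differed from BMP7 by less than the spread between libraries. This order rests on joined exon lengths of 3082 bases for BMP4, 3601 for BMP2 and 5418 for BMP7, and lengths of single transcripts were not tried. In CPM without length, BMP4 at 17.8 stayed below BMP7 at 32.9 in UNC1999.

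**Figure D1:**
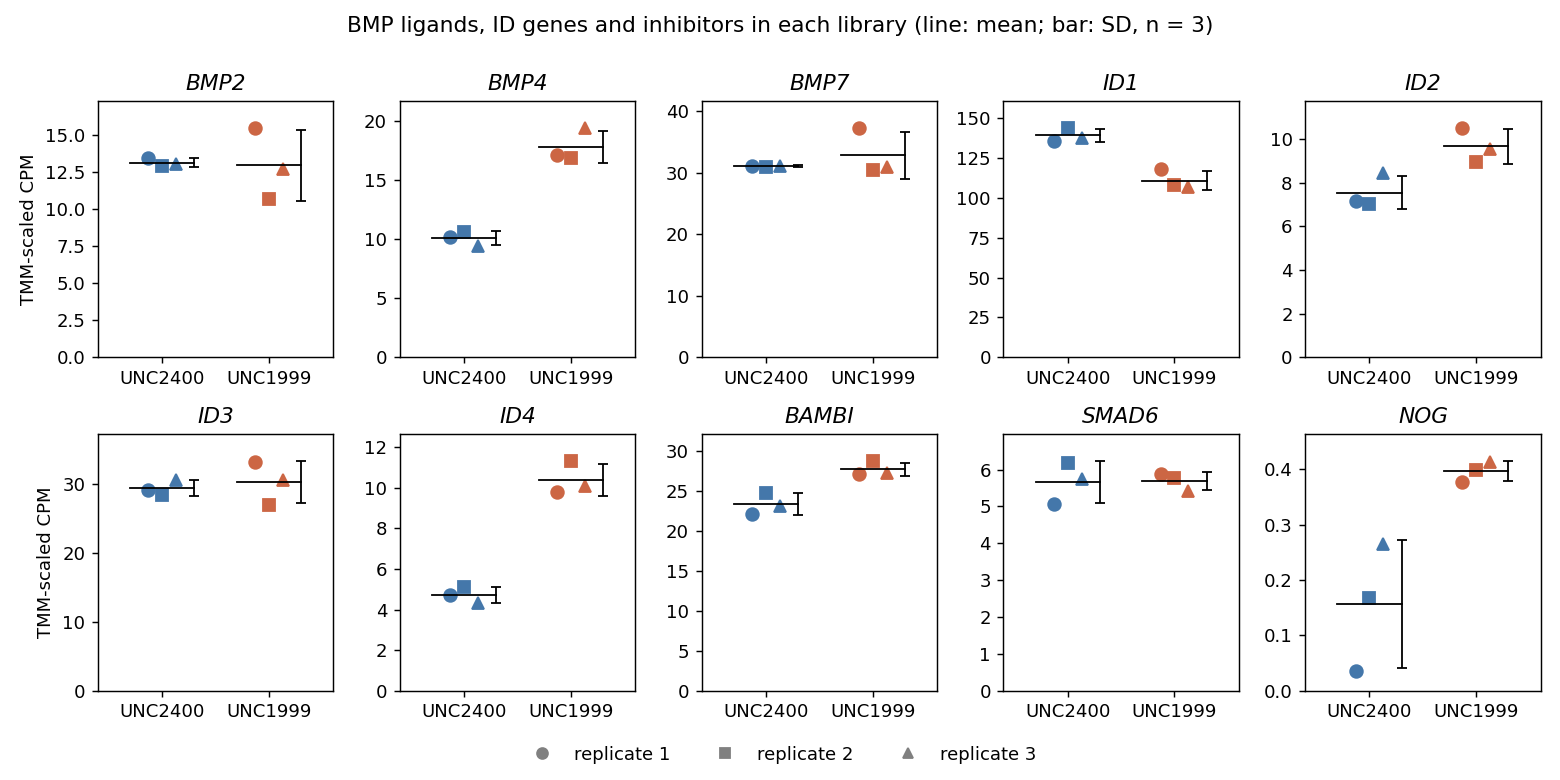
Each panel plots the TMM-scaled CPM of a gene (vertical axis, from 0) in the 3 UNC2400 and 3 UNC1999 libraries, with the group mean as a line and the SD as a bar. BMP4, ID2, ID4, BAMBI and NOG lie higher and ID1 lower in every UNC1999 library, while BMP2, BMP7, ID3 and SMAD6 overlap, with UNC1999 replicate 1 at the top for BMP2, BMP7 and ID3.

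The 4 ID genes did not move together. ID1 was the most abundant of them and fell: it had 136, 144 and 138 CPM in the UNC2400 libraries and 118, 108 and 107 CPM in the UNC1999 libraries. All UNC1999 values lay below all UNC2400 values. From 139 ± 4.12 to 111 ± 5.98 CPM (SD, n = 3 each), ID1 fell by 0.33 on the log2 scale, with a 95% interval of -0.44 to -0.22 (edgeR adjusted p = 6.48e-05). Its call was made in all 14 alternatives (log2 fold change -0.51 to -0.31, adjusted p from 3.08e-08 to 0.00107).

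ID4, the member of the family best known from neural and germline cells, rose most. It went from 4.72, 5.12 and 4.31 CPM in UNC2400 to 9.78, 11.3 and 10.1 CPM in UNC1999. The groups lay far apart against their spread. The fold was 2.19, a log2 fold change of 1.13 with an interval of 0.9 to 1.36 (edgeR adjusted p = 3.36e-07), and between 0.82 and 1.2 over the 14 alternatives, all of which called it (adjusted p from 2.38e-20 to 9.79e-06).

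ID2, which is induced by BMP in many cell types, stood at 7.15, 7.04 and 8.42 CPM in UNC2400 and at 10.5, 8.93 and 9.55 CPM in UNC1999. The groups did not overlap, but UNC2400 replicate 3 and UNC1999 replicate 2 lay close together. Its log2 fold change was 0.36 ± 0.11 (SE; edgeR adjusted p = 0.00868). Without UNC2400 replicate 2 the adjusted p was 0.0549, and with the offsets for span, length and GC the log2 fold change was 0.08 (adjusted p = 0.565). An antisense gene, ID2-AS1, overlaps its exons in GENCODE 29, and since the strand setting of the counting is not given, reads of the pair cannot be told apart.

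ID3, which is often induced together with ID1, had 29.1, 28.4 and 30.6 CPM in UNC2400 and 33.1, 27.0 and 30.6 CPM in UNC1999. The groups overlapped, with UNC1999 replicates 1 and 2 at the ends. Its log2 fold change was 0.04 with an interval of -0.11 to 0.2 (edgeR adjusted p = 0.639), and the intervals of ID1 and ID3 did not overlap.

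Per kb of exon, ID1 made up 83.8% ± 0.76 of the summed ID level with UNC2400 and 77.8% ± 0.685 with UNC1999 (SD, n = 3 each). The share of ID4 went from 1.5% ± 0.115 to 3.85% ± 0.459, that of ID2 from 2.54% ± 0.267 to 3.79% ± 0.133 and that of ID3 from 12.2% ± 0.62 to 14.5% ± 0.898. Shares are parts of one sum, so a lower ID1 level by itself raises the others. ID3 itself was at 16.3 ± 0.643 and 16.8 ± 1.69 CPM per kb (SD, n = 3 each) and did not pass. The summed level was 134 ± 3.09 CPM per kb in UNC2400 and 116 ± 6.34 in UNC1999, most of it ID1. In UNC2400 ID4 was the lowest of the family at 2.01 ± 0.174 CPM per kb, under ID2 at 3.42 ± 0.347. In UNC1999 ID4 at 4.43 ± 0.331 and ID2 at 4.38 ± 0.361 did not differ beyond their spread.

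**Figure D2:**
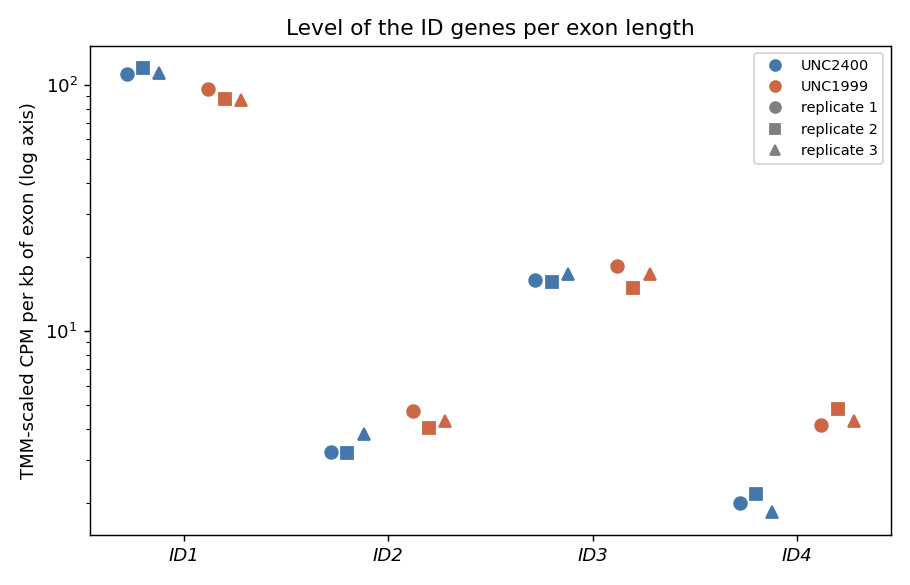
The log-scaled vertical axis gives TMM-scaled CPM per kb of exon for each ID gene, with 1 point per library and the marker shape giving the replicate. ID1 stays the highest in both groups while its UNC1999 points lie lower, and the ID4 points rise to the level of ID2.

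The inhibitors differed among themselves. BAMBI had 22.1, 24.8 and 23.1 CPM in UNC2400 and 27.1, 28.7 and 27.3 CPM in UNC1999, with no overlap. Its log2 fold change was 0.24 ± 0.07 (SE; edgeR adjusted p = 0.00486), a 1.18-fold difference that 13 of 14 alternatives called. With the offsets for span, length and GC it was -0.02 (adjusted p = 0.801). SMAD6, the inhibitory SMAD of the BMP branch, had 5.07, 6.18 and 5.73 CPM in UNC2400 and 5.89, 5.77 and 5.42 CPM in UNC1999. The UNC1999 libraries all fell inside the UNC2400 range, and the 95% interval of the log2 fold change was -0.24 to 0.25 (edgeR adjusted p = 0.99).

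NOG, the secreted BMP antagonist noggin, was near the limit of detection. It had 1, 7 and 8 counts in the UNC2400 libraries and 13, 14 and 14 counts in the UNC1999 libraries. Every UNC1999 count was higher, though the UNC2400 counts were far more spread. The summed counts of 16 and 41 gave a ratio of 2.49 per scaled depth with an exact 95% counting interval of 1.37 to 4.76, which covers counting error only. NOG passed the low-count filter of 0.297 CPM through its UNC1999 libraries alone, so a gene this low could be tested only if it was higher there. Its log2 fold change was 1.3 ± 0.48 (SE; edgeR adjusted p = 0.032). The call ended when UNC2400 replicate 1 (adjusted p = 0.146), UNC2400 replicate 2 (0.0862), UNC1999 replicate 2 (0.0688) or UNC1999 replicate 3 (0.0816) was left out. It also ended at 0.0523 with no low-count filter, 0.0664 with the span, length and GC offsets and 0.0879 with DESeq2.

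**Figure D3:**
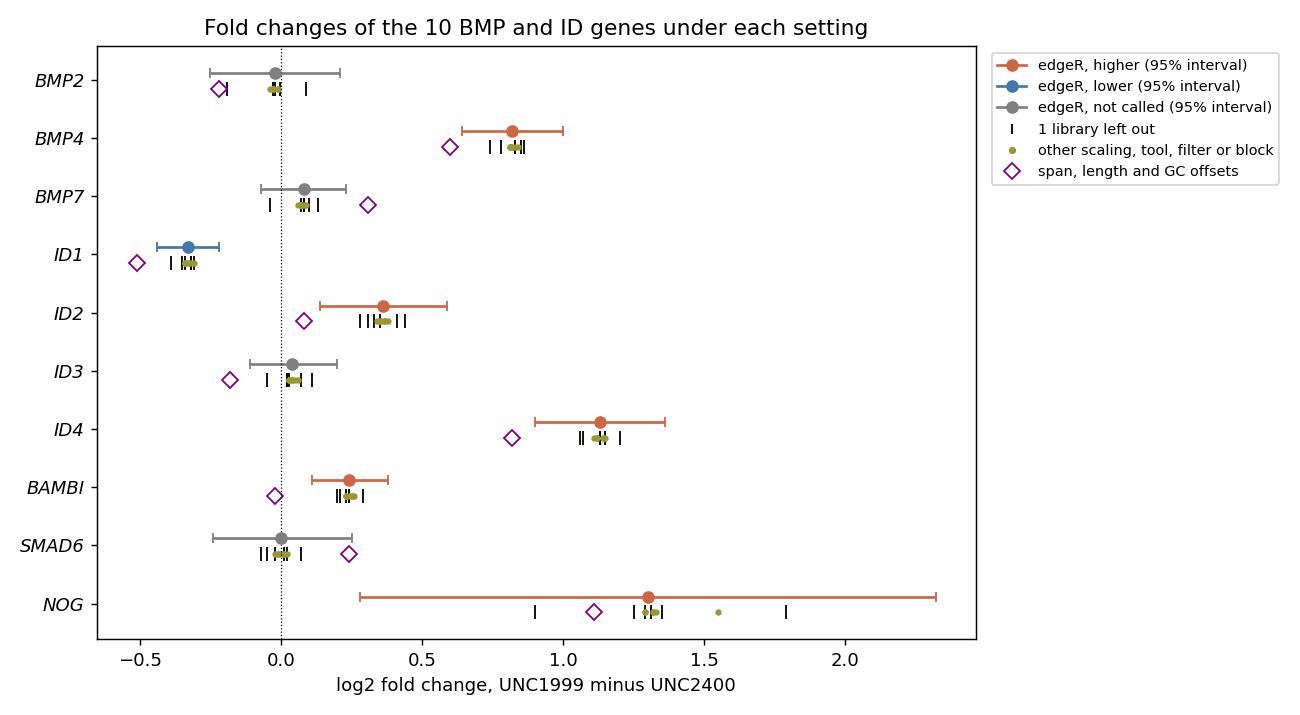
For each gene the upper point and bar give the log2 fold change (UNC1999 minus UNC2400, horizontal axis) with its 95% interval, and the marks under it give the alternatives. BMP4, ID4, ID1, ID2 and NOG keep their side of 0 under all marks, and the diamonds for span, length and GC offsets move BAMBI to -0.02 and BMP7 to 0.31.

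The offsets changed span, exon length and GC content together, so a shift cannot be put down to one of them. The 8 genes with genomic spans of 1233 to 12617 bases all had lower log2 fold changes with them, by 0.18 to 0.32, and the 2 long genes BMP7 and SMAD6 (97882 and 80621 bases) had higher ones, by 0.23 and 0.24. UNC1999 replicate 1 was the highest UNC1999 library for 6 of the 10 genes, by 1.45 times over the lowest for BMP2, 1.23 for BMP7 and 1.22 for ID3. The share of all tested genes that were highest in UNC1999 replicate 1 was not counted. Without that library, 5 of the 10 genes passed as higher and 1 as lower, the same counts as with it.

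In the authors' deposited table the log2 fold changes were 0.8 for BMP4, -0.34 for ID1 and 1.11 for ID4. NOG had 1.26 with an adjusted p of 0.0727 in the authors' deposited table, which puts it on the other side of the threshold from the edgeR test.

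Profiles most like those of BMP4 and ID1 were sought over the 6 libraries by the root-mean-square distance of log2 CPM centred on each gene's mean. The nearest to BMP4 were ZNF777 at 0.036, PROSER2 at 0.044 and FOXN3-AS1 at 0.048, with log2 fold changes of 0.82, 0.86 and 0.82. The nearest to ID1 were SLC25A39 at 0.013, ARRB2 at 0.017 and RNASEH2B at 0.02, with log2 fold changes of -0.31, -0.31 and -0.33. These distances rest on 6 libraries that share the 2-group split, and many genes share it.

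Other genes of the pathway moved in both directions. Of 71 listed genes 51 were tested, of which 17 were higher, 10 lower and 24 did not pass, a called share of 52.9% against 52.7% of all tested genes. Their median log2 fold change was 0.14, against 0.02 for all. Without UNC1999 replicate 1 the counts were 20 higher and 16 lower.

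Of 14 other ligand genes 3 were tested. GDF3, a ligand of the same superfamily that is typical of pluripotent cells, had 35.0, 30.2 and 30.3 CPM in UNC2400 and 28.5, 22.2 and 25.7 CPM in UNC1999, without overlap, and fell by 0.32 on the log2 scale (edgeR adjusted p = 0.00409). BMP6 had a log2 fold change of -0.87 from 1.1 ± 0.463 CPM (SD, n = 3; edgeR adjusted p = 0.0332), which was lost without UNC2400 replicate 1 (0.0668), UNC2400 replicate 3 (0.248), UNC1999 replicate 2 (0.0788) or UNC1999 replicate 3 (0.0889), with limma-voom (0.0705) and with the offsets (0.0983).

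All 11 receptors and co-receptors were tested, with 5 higher and 1 lower, a called share of 54.5% against 52.7% of all tested genes. The type I receptor gene BMPR1A had 127, 125 and 128 CPM in UNC2400 and 109, 93.1 and 91.6 CPM in UNC1999. It fell by 0.37 on the log2 scale (edgeR adjusted p = 7.75e-05), and with the offsets its log2 fold change was -0.1 (adjusted p = 0.108). BMPR2, the type II receptor gene, had a log2 fold change of -0.16 (interval -0.31 to -0.01; edgeR adjusted p = 0.0741). BMPR2 passed as lower without UNC2400 replicate 2, UNC1999 replicate 1 or UNC1999 replicate 2 (-0.22, -0.19 and -0.21) and as higher with the offsets (0.18, adjusted p = 0.0366). The co-receptor gene RGMA rose from 28.4 ± 0.634 to 42.3 ± 1.11 CPM (SD, n = 3 each) and its paralog RGMB by 0.3 on the log2 scale. ACVRL1, a type I receptor gene known from endothelium, rose from 0.472 ± 0.0482 to 1.29 ± 0.294 CPM (SD, n = 3 each). Antisense or overlapping genes lie on exons of RGMA and RGMB in GENCODE 29, so their values are uncertain.

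Of 11 SMADs and SMAD regulators, 4 were higher and 1 lower, a called share of 45.5% against 52.7% of all tested genes. SMAD1 had 15.1, 13.6 and 14.1 CPM in UNC2400 and 18.9, 17.9 and 18.1 CPM in UNC1999, a log2 fold change of 0.36 (edgeR adjusted p = 6.63e-04). SMAD1 has an antisense gene on its exons. SMAD5, a second receptor-activated SMAD, had a log2 fold change of 0.12 (edgeR adjusted p = 0.0387), a call that 9 of 14 alternatives ended. SMAD9 had 0.75 (interval 0.1 to 1.4; edgeR adjusted p = 0.0511), which passed in 6 alternatives, and the common partner SMAD4 had -0.1 (interval -0.2 to 0.01). SMAD4 passed as lower without UNC1999 replicate 1 (-0.14, edgeR adjusted p = 0.0229). SMAD7, an inhibitory SMAD of both the BMP and the NODAL branch, rose from 55.7 ± 3.3 to 75.7 ± 6.55 CPM (SD, n = 3 each), unlike SMAD6, although no test compared the pair. SKIL, a SMAD corepressor gene, fell from 402 ± 2.5 to 216 ± 20.1 CPM (SD, n = 3 each), and TOB1, a gene for an antiproliferative protein that binds SMADs, rose by 0.66 on the log2 scale. TOB1 shares exon positions with TOB1-AS1 on the opposite strand (0.371 CPM in UNC2400 and 0.732 in UNC1999). SMAD4 and SMAD5 also have overlapping genes in GENCODE 29. Of those only SMAD5-AS1 was among the counted gene names, at 0.0625 CPM in UNC2400 and 0.0483 in UNC1999. The values of TOB1, SMAD4 and SMAD5 are therefore uncertain.

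Of 20 extracellular antagonists and modulators, 16 were tested, with 5 higher and 4 lower, a called share of 56.2% against 52.7% of all tested genes. CER1, a secreted antagonist of BMP and NODAL, had 3.54, 3.74 and 3.15 CPM in UNC2400 and 34.6, 60.9 and 68.6 CPM in UNC1999. FSTL3, a follistatin-like antagonist, rose from 6.16 ± 0.529 to 13.6 ± 1.9 CPM, and NBL1, of the same family as CER1, from 14.6 ± 1.11 to 22.4 ± 2.63 CPM (SD, n = 3 each), a value made uncertain by MINOS1, which shares exons with it. FSTL1 fell by 0.37 and KCP by 0.92 on the log2 scale, both with an overlapping gene on the opposite strand. On KCP this is ATP6V1F, at 54.4 CPM in UNC2400 and 60.2 in UNC1999, far above KCP at 6.21 and 3.28. The values of FSTL1 and KCP are therefore uncertain, that of KCP most. TLL1, a chordin-cleaving protease gene, fell by 1.43 from 0.615 ± 0.142 CPM (SD, n = 3); a gene this low in UNC1999 passed the filter only through UNC2400.

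Of 12 other BMP target genes 7 were tested, 3 of them higher and none lower (edgeR). That is a called share of 42.9%, against 52.7% of all tested genes. GATA2 lay lower without overlap, at 0.849 ± 0.167 and 0.541 ± 0.0355 CPM (SD, n = 3 each), but did not pass (edgeR adjusted p = 0.0758). The homeobox genes MSX2 and DLX3 rose by 2.41 and 2.02 on the log2 scale, from 0.247 ± 0.082 and 0.144 ± 0.0763 CPM (SD, n = 3 each), and both passed the filter through their UNC1999 libraries, so the count of higher targets is partly set by it. HEY1, a transcriptional repressor gene, had 1.87, 1.87 and 1.33 CPM in UNC2400 and 2.06, 3.41 and 3.54 CPM in UNC1999 (edgeR adjusted p = 0.0042; 0.0509 with the offsets). GATA3, TFAP2A and HAND1 were among the 5 targets below the filter.

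The E protein genes, whose products the ID proteins bind, were lower or did not pass. TCF3 had 283, 282 and 281 CPM in UNC2400 and 211, 192 and 198 CPM in UNC1999, and fell by 0.49 on the log2 scale (edgeR adjusted p = 7.80e-07), in every alternative. TCF4 fell by 0.44 from 90.7 ± 2.07 CPM (SD, n = 3), but with the offsets for span, length and GC its log2 fold change was 0.17 and passed as higher (adjusted p = 0.00576). TCF4 has overlapping genes on the opposite strand, which makes its value uncertain. Of these only RPL21P126 was among the counted gene names, at 0.0319 CPM in UNC2400 and 0.0189 in UNC1999. TCF12 had -0.13 (edgeR adjusted p = 0.0797). TCF12 passed as lower without UNC1999 replicate 1 (-0.18, adjusted p = 0.00483) and as higher with the offsets (0.31, adjusted p = 9.5e-05).

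**Figure D4:**
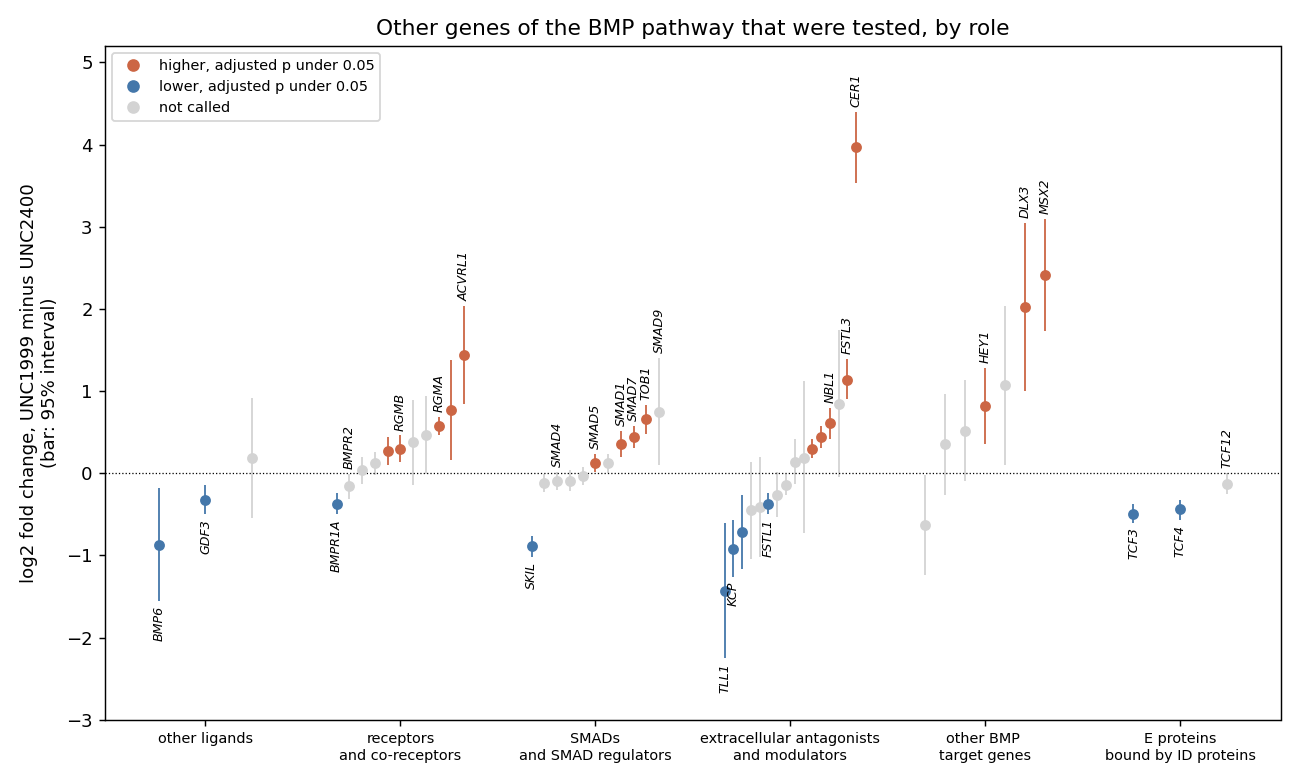
Points give the log2 fold change (UNC1999 minus UNC2400, vertical axis) of the 51 tested pathway genes in 6 role groups, with 95% intervals as bars and colours for the edgeR call. Most points lie within 1 of 0 in both directions, and CER1, MSX2 and DLX3 stand above 2.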

How the data were processed

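Poly(A)-selected, strand-marking libraries were made from 200 ng RNA each, per the labels' protocols. The authors deposited whole-number counts per gene name, without normalization. Per the submitters' processing notes, Trim Galore 0.4.0, TopHat2 2.0.13, featureCounts, Subread 1.5.0 and hg19 were used, in unstated roles. The annotation, strandedness and multi-mapping settings were not given in the sources used here, and the count file is marked as having duplicates removed. Of its gene names, 26 had been turned into dates; they stayed in the tests unnamed. The authors' deposited comparison table holds p-values, scores of its test and log2 fold changes, per the file headers; the authors' deposited log2 values, marked as normalized and batch-corrected, were not analysed here.

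Groups and replicate numbers came from the sample titles. Counts were tested by edgeR's quasi-likelihood F test (edgeR 4.0.16, R 4.3.3, two-sided, TMM, group only, default low-count filter on group), with Benjamini-Hochberg adjustment over 17596 genes at 0.05, and the code was checked on simulated data. Differences are log2 UNC1999 minus log2 UNC2400. Levels are TMM-scaled CPM. Levels per kb used the joined exon length in GENCODE 29, which is on another build and served for gene properties and overlaps only. Tried as alternatives were DESeq2 1.42.0, limma-voom (limma 3.58.1), scaling by RLE or upper quartile, no filter, a filter of 1 CPM in 3 libraries, a replicate block, offsets smoothed over span, exon length and GC (84.3% of tested genes had values), and each library left out. The genes and lists were chosen with earlier results of these data known. Named were all 10 genes, up to 3 pathway genes per role and direction with the smallest p past the threshold, and SMAD1, SMAD5, SMAD9, SMAD4, SMAD7, BMPR1A, BMPR2, TCF3, TCF4 and TCF12. The replicate pairs of both groups differed by more than sampling noise (chi-square per degree of freedom 4.22 to 11.9).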

Additional observations from a re-analysis of the deposited data

How the results depend on the processing

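BMP4, ID4 and ID1 kept their direction and call in all 14 alternatives, and the count of genes lower among the 10 was 1 in each. With the span, length and GC offsets 3 of the 10 were higher; BMP7 had 0.31, ID2 0.08, ID3 -0.18, BAMBI -0.02 and NOG 1.11 (log2), and among pathway genes BMPR2 had 0.18, SMAD4 0.02, TCF4 0.17 and TCF12 0.31. NOG lost its call at 1.29 with no low-count filter and at 1.32 with DESeq2; the stricter filter removed it. SMAD6, at 0.002, changed sign without a call at -0.01 with RLE scaling and with DESeq2, at -0.02 with no filter and at -0.0017 with limma-voom. Over fits that left out 1 library, log2 fold changes ran from -0.19 to 0.09 for BMP2, -0.04 to 0.13 for BMP7, 0.28 to 0.44 for ID2, -0.05 to 0.11 for ID3, -0.07 to 0.07 for SMAD6 and 0.9 to 1.79 for NOG. In those fits the number of the 10 that were higher ran from 3 to 5, the 3 without UNC2400 replicate 2, and the number of pathway genes lower from 9 to 16, the 16 without UNC1999 replicate 1. The cause of these changes was not tested. With the replicate block 5 of the 10 genes were higher and 1 lower, as without it, and pathway genes were 19 higher and 11 lower; among the named ones SMAD9 passed at 0.78 (adjusted p = 0.0186). Deviations of same-numbered libraries correlated at 0.024, 0.084 and 0.124, not all over 0.1, so the labels and this check do not establish a pairing, and whether the number marks a batch is not known; UNC2400 replicate 1 did not correlate best with its own number. For all tested genes the block moved the calls from 4714 higher and 4554 lower to 4867 and 4695. Depth limits NOG, at 1 to 14 counts per library.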
